A study of Mus musculus with 3 samples.

Results

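Matrix metalloproteinases (MMPs) and their tissue inhibitors (TIMPs) were followed in nasal mucosa of mice by single-cell RNA sequencing. Members were taken by gene symbol: Mmp2, Mmp3, Mmp9, Mmp12, Mmp13, Mmp14, Mmp19, Timp1, Timp2 and Timp3, which are 10 of the 55357 genes in the deposited matrices. All 10 were present once and carried unique molecular identifiers (UMIs, one per captured RNA molecule) in all 3 libraries. The mice were of the C57BL/6J strain, with as many males as females in a group per the series' design text. Neither their age nor their number is given in the sources used here. The papain with lonidamine group was given 20 µg papain in the nose, a cysteine protease from papaya, as a model of eosinophilic chronic sinusitis, and by gavage 10 mg/kg lonidamine, a drug that lowers glycolysis. In the papain group the papain dose was the same and PBS was given by gavage, and in the PBS group PBS was given in the nose. All mice of 1 group went into 1 pooled library, so no difference given here has a replicate check, and no test between groups was possible.

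MMPs are zinc-dependent proteases that are made as inactive proenzymes, activated by removal of their propeptide, and cut collagens, other matrix proteins, cytokines and receptors. TIMPs bind the active site of MMPs and hold them inactive, and Timp3 also inhibits several ADAM and ADAMTS proteases. In airway mucosa, fibroblasts and epithelium make several of these enzymes during repair, neutrophils store Mmp9 in granules, and macrophages make Mmp12. RNA levels, which are what was measured here, say nothing on proenzyme activation or on inhibition.

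Inducible MMP promoters are known for an AP-1 site close to the TATA box. The promoter windows of Mmp3, Mmp12 and Mmp13, the 3 members with the most uneven levels between cells, are shown because each held the AP-1 letters TGANTCA, printed in capitals. Each line gives the 100 bases just before an annotated transcription start, 5′ to 3′.
Mmp3 promoter, GRCm38.p6, chr9:7445722-7445821, plus strand: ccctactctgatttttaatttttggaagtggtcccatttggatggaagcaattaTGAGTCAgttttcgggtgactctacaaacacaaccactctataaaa
Mmp12 promoter, GRCm38.p6, chr9:7347274-7347373, plus strand: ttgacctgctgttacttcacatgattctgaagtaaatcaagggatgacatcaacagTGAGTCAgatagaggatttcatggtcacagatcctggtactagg
Mmp13 promoter, GRCm38.p6, chr9:7272414-7272513, plus strand: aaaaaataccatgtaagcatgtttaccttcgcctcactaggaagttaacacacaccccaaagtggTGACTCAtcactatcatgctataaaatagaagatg
RefSeq promoter sequences of build GRCm38.p6, which hold 250 bases before and 50 after each start, were at hand for 7 of the 10 members, in 8 windows. TGANTCA reads the same on both strands, and it was found in 3 of the 8 windows, against 7.81% of all 32851 mouse windows searched. The match began 46 bases before the start in Mmp3, 35 in Mmp13 and 44 in Mmp12, for the second of 2 annotated Mmp12 starts. The TATA box letters TATAAA began 7 bases before the start in Mmp3 and 16 in Mmp13. In Mmp12 they came after the annotated start, so its printed window holds none. Distances to the start are therefore not like positions between the 3 genes. No match was found in these windows of Mmp14, Timp1, Timp2 or Timp3, or at the first Mmp12 start. A match of letters is a description of the sequence and shows no binding.

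The libraries held 12598 barcodes for papain with lonidamine, 11071 for papain and 9740 for PBS, with 89164040, 86197965 and 82399462 UMIs. After filters and removal of doublet calls 11887, 10524 and 9378 cells were kept, with medians of 5823, 6547 and 7352.5 UMIs. A cell was assigned to a marker gate, a set of known marker genes for a cell type, when it detected at least 3 of the markers and more than of any other of the 26 sets. This placed 84.6%, 86.2% and 89.8% of the cells. A gate is a range of marker detection and not a proven type: 935, 802 and 525 gated cells sat at the minimum of 3 markers. Gate shares differed between the libraries. Fibroblast-gated cells were 4.97%, 4.42% and 1.44% of the cells, neutrophil-gated cells 5.67%, 5.45% and 2.31%, and mature olfactory neurons 13.1%, 13.8% and 33.0%. Mitochondrial and ribosomal RNA took 7.73%, 8.04% and 3.97% of UMIs. Cells that could be assigned a sex were 7760 female and 1580 male, 5746 and 2109, and 3877 and 2948, in the same order of libraries. Libraries shared between 22 and 38 barcodes in pairs. Levels are given as CPM (counts per 1000000), the UMIs of the gene scaled to that total of UMIs in the cells considered. Square brackets give 95% intervals, which cover counting error only. In mature olfactory neurons, which should lack most of these genes, UMIs of them were taken as the background of free RNA.

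Papain against PBS was the comparison of the disease model with its control. Over all kept cells, Mmp3, Mmp9, Timp1 and Timp3 were at least 2-fold higher in papain, and the collagenase Mmp13 was at least 2-fold lower. These were 4 and 1 of the 10 members, while 10.2% of the 22862 genes with at least 20 UMIs were that much higher and 5.92% that much lower. The largest ratio was that of the stromelysin Mmp3, with a log2 ratio of 3.72 [3.24, 4.28]. The gelatinase Mmp9 had a log2 ratio of 1.84 [1.69, 1.99], Timp1 of 1.5 [1.39, 1.60], Timp3 of 1.01 [0.99, 1.04] and Mmp13 of -1.01 [-1.15, -0.88]. Of these, Mmp9 was 2.5 in female and 0.92 in male cells, and Timp1 1.78 in female and 0.95 in male cells, so neither was past 2-fold in male cells. Mmp13 changed sign, with -1.62 in female and 1.99 in male cells, and lay below 2-fold without the top cell of each library. Mmp2, Mmp12, Mmp14 and Mmp19 lay between 0.58 and 0.94, and Timp2 was at -0.08 [-0.11, -0.04]. The median log2 ratio was 0.81 over the members and -0.02 over all genes tested.

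Part of these ratios moved with the mix of cells in the libraries. When each gate was given its mean share over the 3 libraries, the log2 ratio of Mmp9 became 1.09, of Timp1 0.86 and of Timp3 0.41, so that both inhibitors lay below 2-fold. Mmp2, which was 0.63 over all cells, became -0.36. Mmp12 became 1.12 and Mmp19 1.34, both past 2-fold, and Mmp13 became -2.05. Fixed shares leave single high cells in. In fibroblasts, 1 papain cell held 440 of the 518 Mmp12 UMIs, and 7 PBS cells held all 1070 Mmp13 UMIs. The levels within gates, given below by member, show where the difference lay.

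**Figure D1:**
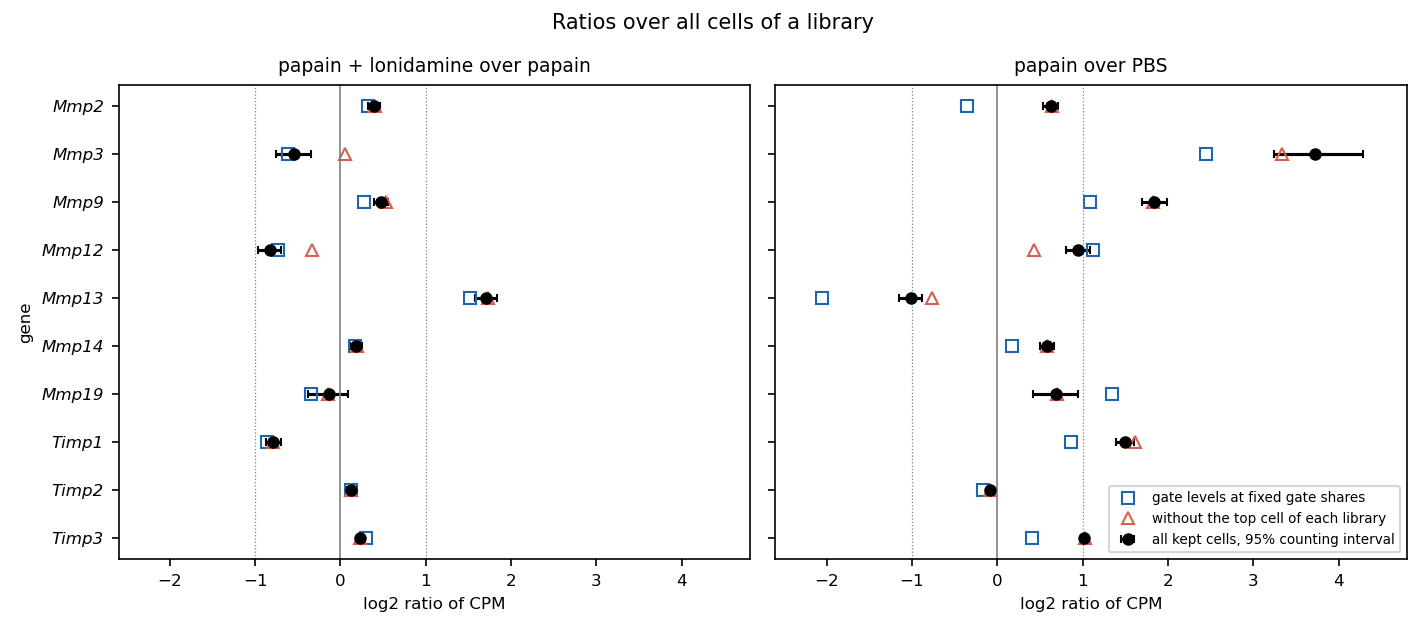
Log2 ratio of CPM for each member (rows), left for papain with lonidamine over papain and right for papain over PBS. Filled circles with bars are all kept cells with 95% counting intervals, squares the same with gate shares held fixed, triangles without the cell holding the most UMIs of the gene in each library, and dotted lines 2-fold. Among the filled circles, Mmp3 (3.72) and Mmp13 (-1.01) are the ends of the right panel, and Mmp13 (1.70) stands alone past 2-fold in the left.

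The members fell into different cell types, and few of their UMIs were spread evenly. Mmp2 and Mmp3 were mostly in fibroblast-gated cells, with between 66.1% and 76.9% of the Mmp2 UMIs of a library and between 93.8% and 97.5% of the Mmp3 UMIs. Neutrophil-gated cells held between 72.6% and 75.2% of the Mmp9 UMIs, although they were at most 5.67% of the cells. Timp3 was in the vessel wall and the basal epithelium: pericyte or smooth muscle cells held between 17.5% and 21.8% of its UMIs, endothelial cells between 14.0% and 21.5% and basal epithelial cells between 28.1% and 35.4%. The fewest cells that held 50% of the UMIs of Mmp3 were 5, 2 and 2 cells of papain with lonidamine, papain and PBS, those of Mmp13 were 7, 5 and 3 cells, and those of Mmp12 were 9, 2 and 11 cells. For Timp2 it took 1024, 1031 and 714 cells.

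**Figure D2:**
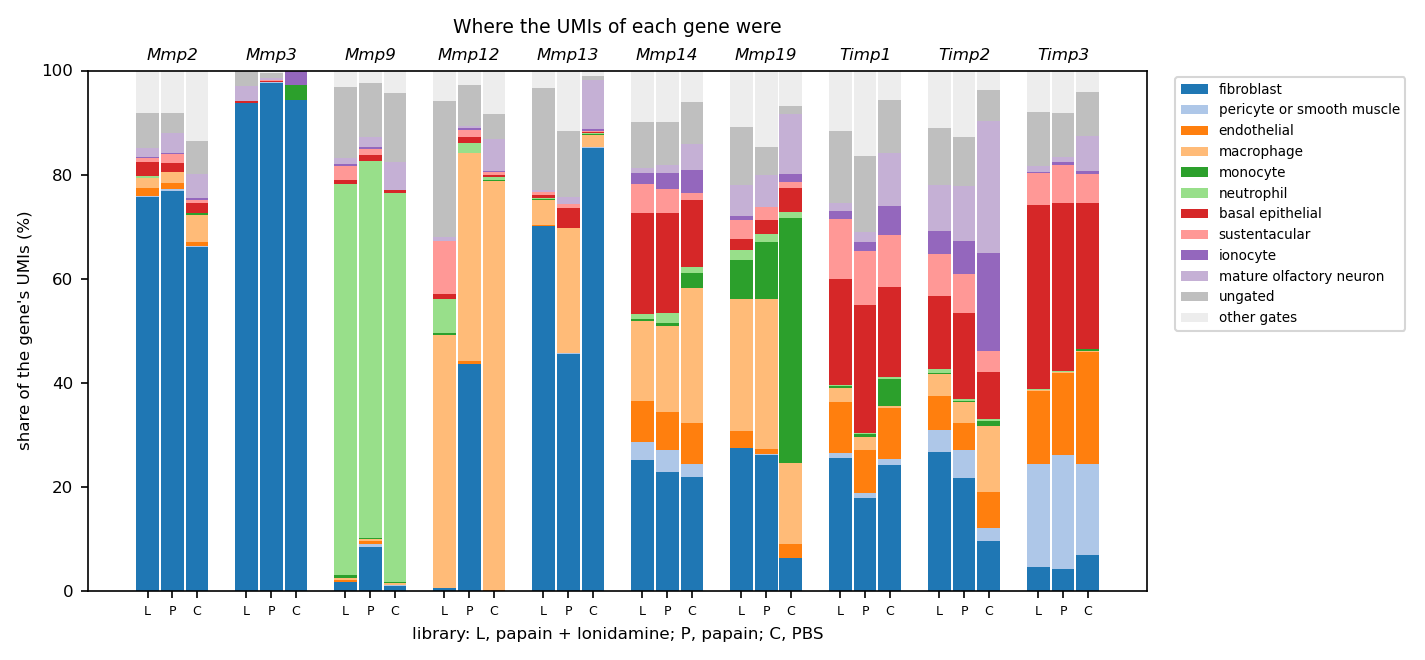
Share of the UMIs of each member (%) by marker gate in papain with lonidamine (L), papain (P) and PBS (C), stacked to 100%. Fibroblasts dominate Mmp2 and Mmp3, neutrophils Mmp9, and the fibroblast part of Mmp12 in papain (43.5%) has no counterpart of its size in papain with lonidamine (0.438%) or PBS (0).

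**Figure D3:**
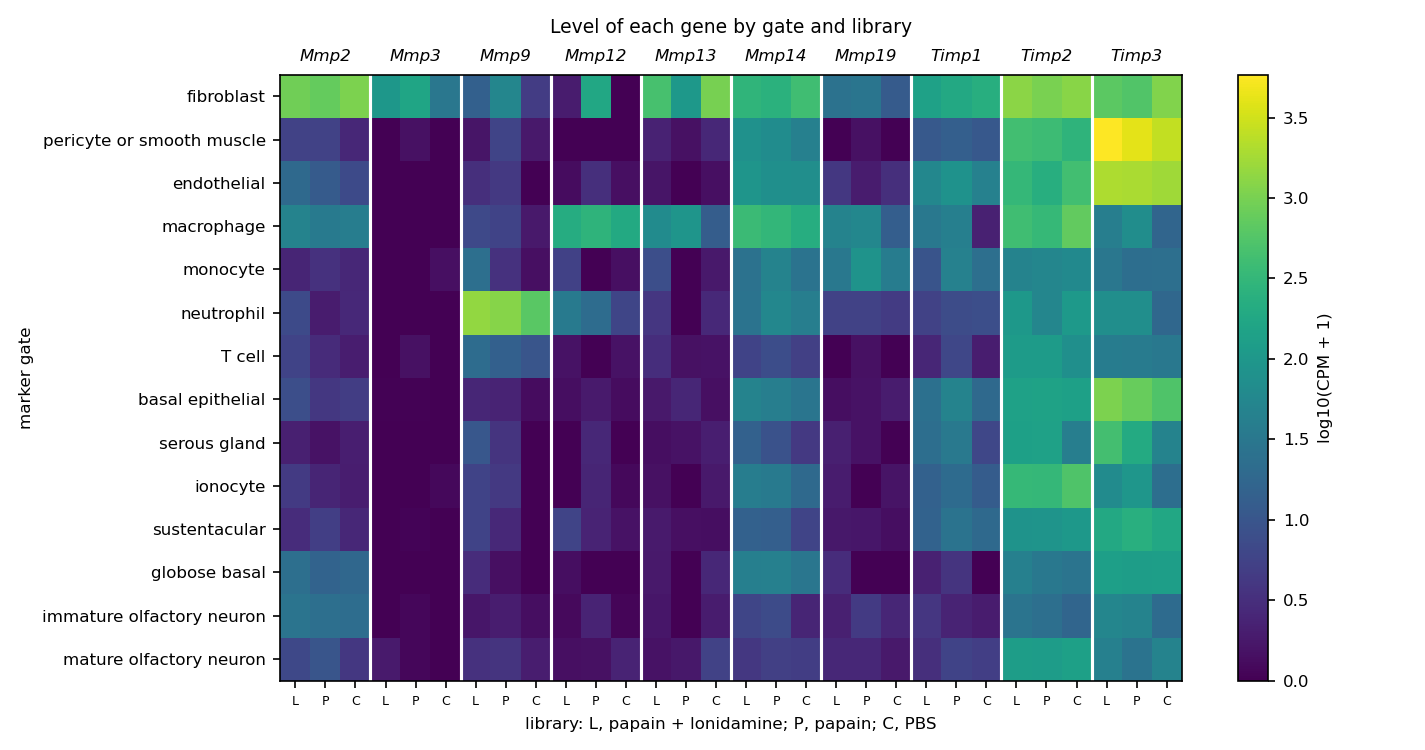
Level of each member, as log10(CPM + 1) by colour, in the 14 gates with at least 50 cells in every library (rows), for papain with lonidamine (L), papain (P) and PBS (C). Mmp9 is brightest in neutrophils (1438, 1199.8 and 628 CPM) and Timp3 in pericytes or smooth muscle (5839, 4126 and 2606 CPM).

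Within gates with at least 50 cells in both libraries, 27 of 79 pairs of member and gate were at least 2-fold higher in papain than in PBS and 5 were that much lower. Over the same 14 gates, 8.71% of all gene and gate pairs were that much higher and 5.12% that much lower. The calls include mature olfactory neurons, the gate taken as background, with Mmp2 and Mmp9 higher and Mmp12 and Mmp13 lower. Fibroblasts had the most members called, with 4 higher and 2 lower of 10, against a background of 13.7% of genes called in either direction. Among the higher ones, 1 papain cell held 440 of the 518 Mmp12 UMIs and another held 87 of the 152 Mmp9 UMIs. Macrophages had 4 higher and 1 lower of the 8 members with enough UMIs, against 16.2%. Pericytes or smooth muscle, endothelial cells, globose basal cells and T cells had none called, with 13.5%, 12.6%, 6.56% and 11.4% of genes called there. In the other gates that hold a call, the share of genes called in either direction was 14.0% in monocytes, 12.8% in neutrophils, 15.8% in basal epithelium, 27.4% in serous gland cells and 11.1% in ionocytes. It was 14.2% in sustentacular cells, 9.88% in immature and 16.6% in mature olfactory neurons.

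Mmp13, a collagenase that cleaves fibrillar collagens and is known from bone and cartilage as well as from inflamed tissue, was carried by few cells. It had 2156 UMIs in 153 cells in papain with lonidamine, 645 UMIs in 74 cells in papain and 1257 UMIs in 70 cells in PBS. These are 25.4 [24.3, 26.5], 7.78 [7.19, 8.40] and 15.7 [14.9, 16.6] CPM, so papain was the lowest of the 3 libraries. Without the top cell of each library, which held 279, 93 and 348 UMIs, the log2 ratio of papain over PBS was -0.77 and no longer past 2-fold. In fibroblast-gated cells it had 472, 101 and 974 CPM from 51, 23 and 7 detecting cells. Papain was thus lower than PBS there, with a log2 ratio of -3.27 [-3.46, -3.08], and papain with lonidamine was higher than papain, with 2.23 [2.05, 2.41].

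The Mmp13 level of the fibroblast gate followed a few cells with markers of bone-forming cells. The list of 8 such markers (among them Bglap and Ibsp, matrix proteins of bone, and Sp7, an osteoblast transcription factor) summed to 573, 209.8 and 925 CPM in fibroblast-gated cells, with none of the 8 at 0 in any library. Fibroblast-gated cells with at least 2 of these markers numbered 49, 21 and 9 and held 1376, 213 and 1070 Mmp13 UMIs, detected in 75.5%, 57.1% and 77.8% of them. Their Mmp13 levels were 4210.2, 1659 and 14243 CPM, so PBS had the fewest such cells and the highest level in them. The other fibroblast-gated cells, 542, 444 and 126 in number, held 135, 81 and 0 Mmp13 UMIs, detected in 2.58%, 2.48% and 0% of them. In these other cells papain was at least 9.91-fold higher than PBS, counted against a floor of 3 UMIs in PBS, which is the opposite direction to the whole gate. Cells with at least 10 Mmp13 UMIs numbered 35, 13 and 7 and held 89.0%, 76.9% and 93.2% of its UMIs, and 30, 8 and 7 of them had at least 2 bone-forming markers. Whether the number of bone-derived cells in each preparation sets the Mmp13 level was not tested. The split at 2 markers and the minimum of 10 UMIs were chosen after the values were seen.

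The PBS level of Mmp13 rested on female cells. All 1070 UMIs of the fibroblast gate in PBS were in female cells, of which 7 of 71 detected it, and the 37 male fibroblasts had 0. Over all kept cells the log2 ratio of papain over PBS was -1.62 [-1.78, -1.47] in female and 1.99 [1.43, 2.62] in male cells. Male cells of papain had 92 UMIs in 12 of 2109 cells (0.569%). Male cells of PBS had 34 UMIs in 25 of 2948 cells (0.848%), so detection had the opposite order to the level. A PBS barcode gated as a mature olfactory neuron, which also detected 5 fibroblast and 4 bone-forming markers, held 106 of the 120 Mmp13 UMIs of that gate.

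Macrophages also held Mmp13. Macrophage-gated cells had 103, 155 and 29 UMIs in 26, 22 and 13 cells, or 65.5, 91.6 and 11.8 CPM. Papain was higher than PBS, with a log2 ratio of 2.93 [2.37, 3.58], and of 2.45 without the macrophage with the most UMIs in each library, which held 71 of the 155 UMIs in papain. Detection was 7.18%, 6.30% and 4.08% of macrophages, and 5.69%, 4.49% and 2.52% after each cell was thinned to 2000 UMIs. T cells, with 4, 1 and 1 UMIs in 573, 538 and 569 cells, gave the background.

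Mmp3, or stromelysin 1, cleaves proteoglycans and fibronectin and activates other proMMPs. It had 338 UMIs in 35 cells, 484 UMIs in 47 cells and 35 UMIs in 13 cells of papain with lonidamine, papain and PBS. Fibroblast-gated cells held 317, 472 and 33 of them, or 99.1, 162 and 30.0 CPM, and papain was higher than PBS with a log2 ratio of 2.41 [1.92, 2.99]. The share of fibroblasts with a Mmp3 UMI did not follow this order, with 4.91% [3.31, 6.97], 7.53% [5.30, 10.3] and 8.15% [4.14, 14.1], and thinned to 2000 UMIs it was 4.36%, 4.84% and 4.62%. The level differed by UMIs per detecting cell: 10, 8 and 1 cells had at least 10 UMIs. One papain cell held 218 of the 484 UMIs, and without the top cell of each library the log2 ratio over all cells was 3.33. Mature olfactory neurons had 10, 2 and 0 Mmp3 UMIs in 1554, 1454 and 3097 cells, the 10 being in 1 barcode.

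Between papain with lonidamine and papain, Mmp3 lay below 2-fold, with a log2 ratio of -0.55 [-0.76, -0.35] over all cells. Without the top cell of each library it was 0.05. It was -1.16 [-1.39, -0.94] in female cells, which include that papain cell, and -2.39 [-4.95, -0.89] in male cells, from 3 UMIs in papain with lonidamine and 27 UMIs in papain. None of the fibroblasts with at least 2 bone-forming markers held a Mmp3 UMI, in 49, 21 and 9 cells, so Mmp3 and most of Mmp13 lay in different fibroblast-gated cells.

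Mmp12, macrophage elastase, degrades elastin and is made by alveolar and tissue macrophages. It had 685 UMIs in 106 cells in papain with lonidamine, 1191 in 96 cells in papain and 599 in 81 cells in PBS, or 8.06, 14.4 and 7.49 CPM. The share of cells with a UMI was 0.892%, 0.912% and 0.864%, so papain stood out by UMIs per cell and not by detecting cells. In macrophage-gated cells the values were 332, 478 and 471 UMIs, or 211 [189, 235], 282 [258, 309] and 192 [175, 210.2] CPM, detected in 9.94%, 9.74% and 11.9% of 362, 349 and 319 macrophages. Without the macrophage with the most UMIs in each library these levels were 165, 178 and 169 CPM.

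In papain, 518 of the Mmp12 UMIs were in 6 fibroblast-gated cells, against 3 UMIs in 3 cells of papain with lonidamine and 0 UMIs in 135 cells of PBS. By UMIs, papain was 65.0-fold above a floor of 3 UMIs in PBS, which is no lower bound where few cells hold the UMIs. A single cell held 440 of the 518 UMIs, and another held 74. The first of them detected 7 of 8 fibroblast markers, 0 of 7 macrophage markers and 16732 UMIs in all. It also detected 4 markers of its next gate, and the median papain fibroblast had 5984 UMIs. It was also the papain cell with the most Mmp3 (218 UMIs) and the most Mmp14 (36 UMIs), and it had 74 Timp1 UMIs. The second detected 8 fibroblast markers and 1 macrophage marker, and had the second most Mmp3 UMIs, 65. Both were female cells. The other 4 detecting fibroblasts in papain shared the remaining UMIs with at most 1 each.

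Without the top cell of each library, the log2 ratio of Mmp12 over all cells was 0.43 for papain over PBS, against 0.94 with it. For papain with lonidamine over papain it was -0.33, against -0.83 with it. Of the 465 papain fibroblasts, these 2 held all but 4 of the Mmp12 UMIs.

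**Figure D4:**
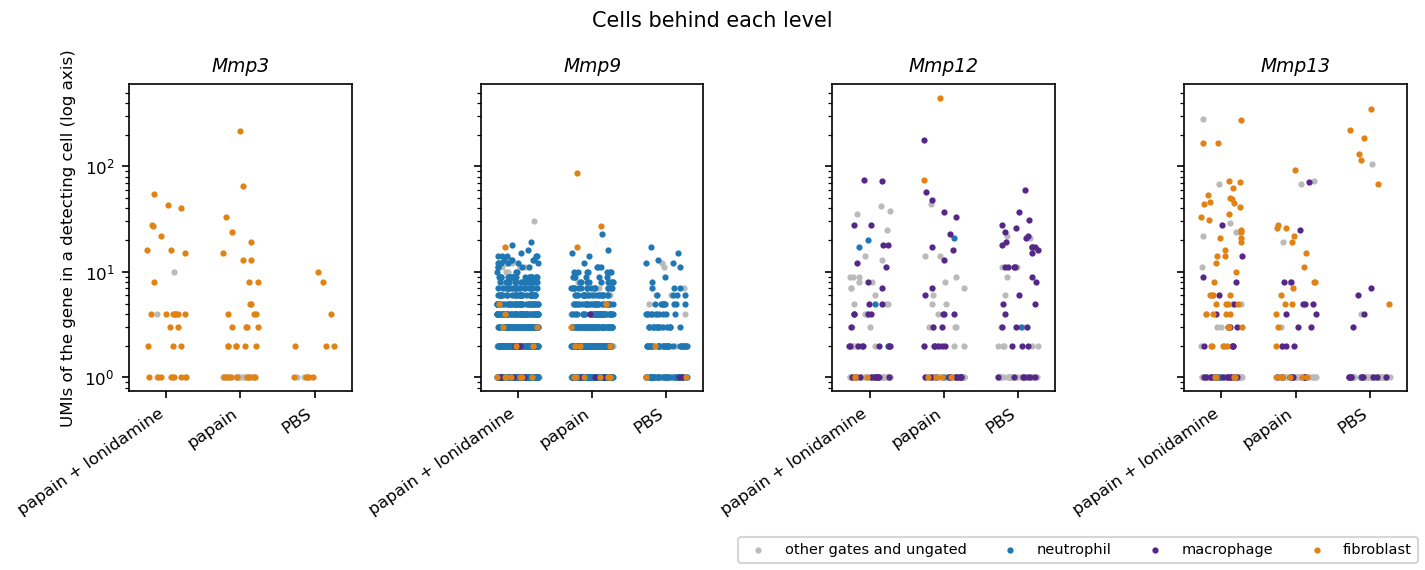
UMIs of Mmp3, Mmp9, Mmp12 and Mmp13 in each detecting cell (points, log axis), by library and coloured by gate, with random horizontal spread. The papain fibroblast with 440 Mmp12 and 218 Mmp3 UMIs, the neutrophils of Mmp9 and the few PBS fibroblasts with up to 348 Mmp13 UMIs stand out.

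Mmp9, or gelatinase B, cleaves denatured collagen and basement membrane collagen and is stored in the tertiary granules of neutrophils. Neutrophil-gated cells had 1934 UMIs in 515 of 674 cells in papain with lonidamine, 1311 in 412 of 574 cells in papain and 364 in 113 of 217 cells in PBS. These are 1438, 1199.8 and 628 CPM. The log2 ratio was 0.93 [0.77, 1.11] for papain over PBS and 0.26 [0.16, 0.36] for papain with lonidamine over papain, both below 2-fold. Detection was 76.4% [73.0, 79.6], 71.8% [67.9, 75.4] and 52.1% [45.2, 58.9] of neutrophils, at median depths of 1439.5, 1570.5 and 1979 UMIs. The order was the same, at 75.7%, 62.5% and 34.3%, in the cells deep enough to be thinned to 2000 UMIs. Mature olfactory neurons, at medians of 6705.5, 7224.5 and 7740 UMIs, had a Mmp9 UMI in 1.22%, 1.79% and 0.678% of cells.

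In female neutrophils Mmp9 was at 1187, 872 and 249 CPM in 213, 194 and 43 cells, and in male neutrophils at 746, 1351 and 895 CPM in 41, 37 and 45 cells, so the order of the libraries differed between the sexes. Most neutrophils had too few sex-linked UMIs to be assigned. In fibroblasts Mmp9 had 43, 152 and 4 UMIs, and its log2 ratio was 3.67 [2.45, 5.73] for papain over PBS and -1.94 [-2.48, -1.46] for papain with lonidamine over papain. Of the 152 papain UMIs, 87 were in 1 cell that also held the most Timp1 UMIs of that library, 78, and 0 UMIs of Mmp2, Mmp3 or Mmp12. That cell detected 6 fibroblast markers and 4 markers of its next gate. Mmp9 was detected in 2.37% [1.30, 3.94], 3.23% [1.82, 5.26] and 2.22% [0.461, 6.36] of fibroblasts, with overlapping intervals, and in 2.79%, 3.16% and 0.879% of T cells, which should lack it. At median depths of 4776, 5984 and 7298 UMIs in fibroblasts and 2608, 2951 and 2998 UMIs in T cells, the fibroblast shares of papain with lonidamine and papain were near those of T cells. Of the fibroblasts, 1, 3 and 0 held at least 10 Mmp9 UMIs.

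Mmp2, or gelatinase A, is made by fibroblasts as a constitutive enzyme that Mmp14 activates at the cell surface. Over all cells it had 3799, 2829 and 1768 UMIs, or 44.7, 34.1 and 22.1 CPM. Within fibroblasts the levels were 898 [866, 932], 746 [715, 778] and 1063 [1003, 1126] CPM, and papain was below PBS by less than 2-fold, with a log2 ratio of -0.51 [-0.61, -0.41]. The higher Mmp2 of the papain library as a whole thus went with more fibroblasts and not with a higher level in them. Detection was 84.9%, 83.4% and 91.1% of fibroblasts, and 71.5%, 67.5% and 74.6% after thinning. Immature olfactory neurons had 27.1, 22.5 and 21.5 CPM, detected in 13.1%, 13.1% and 14.5% of them, above the mature neurons with 5.54, 8.96 and 3.07 CPM.

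Mmp14, the membrane-type enzyme that activates proMmp2, was the most widely detected of the enzymes here, with a UMI in 18.8%, 18.3% and 10.7% of all kept cells. It had enough UMIs in 13 gates for papain over PBS, and 2 of them, sustentacular cells and immature olfactory neurons, were past 2-fold. Immature olfactory neurons had 6.27 CPM in papain and 1.42 CPM in PBS, from 37 and 11 UMIs. Mature olfactory neurons, the background, had 4.15 and 3.9 CPM. Sustentacular cells, the supporting cells of olfactory epithelium, had 13 CPM in papain and 4.89 CPM in PBS, with a log2 ratio of 1.39 [0.81, 2.06]. Fibroblasts had 294, 251 and 413 CPM and macrophages 364, 313 and 219 CPM, so that papain was below PBS in fibroblasts (-0.72 [-0.89, -0.55]) and above it in macrophages (0.52 [0.34, 0.69]), each by less than 2-fold.

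Mmp19, an enzyme that cleaves basement membrane proteins, had 296, 319 and 191 UMIs in 219, 214 and 141 cells. No cell held more than 11 UMIs of it. Fibroblasts held 27.4%, 26.0% and 6.28% of its UMIs, macrophages 25.3%, 28.8% and 15.7%, and monocytes 7.43%, 11.0% and 47.1%, while monocyte-gated cells numbered 161, 96 and 392. Macrophages had 47.7 [37.5, 59.8], 54.4 [43.8, 66.7] and 12.2 [8.25, 17.5] CPM, and papain was higher than PBS with a log2 ratio of 2.14 [1.54, 2.80]. Monocytes had 31.5, 86.3 and 37.3 CPM, with 1.22 [0.60, 1.79] for papain over PBS and -1.44 [-2.30, -0.65] for papain with lonidamine over papain. Fibroblasts had 25.3, 28.5 and 10.9 CPM, with 1.33 [0.50, 2.39] for papain over PBS. Mature olfactory neurons had 1.61, 1.63 and 0.825 CPM.

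Timp1 is the inducible inhibitor, which binds most secreted MMPs and forms a complex with proMmp9. It had 1786 UMIs in 812 cells, 3012 in 1181 cells and 1029 in 365 cells of papain with lonidamine, papain and PBS, or 21.0, 36.3 and 12.9 CPM. Basal epithelial cells held 20.3%, 24.5% and 17.3% of these UMIs. Basal epithelial cells had 23.7 [21.3, 26.3], 47.3 [43.9, 50.8] and 18.7 [16.0, 21.6] CPM, detected in 10.8%, 19.2% and 8.54% of cells and in 3.94%, 6.22% and 2.41% after thinning. The log2 ratio was 1.34 [1.10, 1.59] for papain over PBS and -1.0 [-1.18, -0.81] for papain with lonidamine over papain, the second just under 2-fold before rounding. In female basal cells Timp1 was at 58.4 CPM in papain and 7.52 CPM in PBS, with a log2 ratio of 2.94. In male basal cells it was at 33.2 CPM in papain and 33.6 CPM in PBS, with a log2 ratio of -0.02.

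Secretory epithelial cells had 27.4 [21.5, 34.2] CPM of Timp1 in papain with lonidamine and 95 [84.5, 106] CPM in papain, from 177 and 193 cells, with a log2 ratio of -1.79 [-2.18, -1.43]. The 21 secretory cells of PBS were too few for a ratio and had 23.4 [11.2, 43.0] CPM. Macrophages had 31.2, 41.9 and 1.22 CPM from 49, 71 and 3 UMIs, and the log2 ratio of papain over PBS was 4.89 [3.49, 7.41]. Mature olfactory neurons had 2.23, 4.8 and 3.94 CPM, so the macrophage level of papain stood above that background and the level of PBS below it.

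In fibroblasts as a whole Timp1 had 142, 184 and 226 CPM, with papain below PBS at -0.30 [-0.51, -0.07]. The PBS fibroblasts with at least 2 bone-forming markers held 207 of its 248 UMIs in 9 cells, and 1 of them held 100. In the other fibroblasts the levels were 119 [106, 132], 173 [158, 189] and 40 [28.7, 54.3] CPM, so papain was the highest and PBS the lowest there by CPM. Detection in them was 15.1%, 22.5% and 15.1%, the same in papain with lonidamine and PBS. The papain cells with the most Timp1 held 78, 74 and 57 of the 482 UMIs, and those of papain with lonidamine 41 and 25 of 341.

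Timp2, a constitutive inhibitor that also takes part in the activation of proMmp2 by Mmp14, was the most evenly spread member. It had 183, 168 and 178 CPM over all cells and a UMI in 47.0%, 48.9% and 48.4% of them. Of 14 gates, macrophages were the one with at least 2-fold less in papain than in PBS, and serous gland cells the one with at least 2-fold more. Macrophages had 402 [371, 435], 337 [309.7, 366] and 736 [702, 770.3] CPM, a log2 ratio of -1.13 [-1.27, -0.99] for papain over PBS. Timp2 was detected in 60.8%, 55.0% and 83.7% of macrophages and in 45.9%, 39.0% and 61.9% after thinning. Mature olfactory neurons carried Timp2 themselves, at 122, 120.4 and 136 CPM, and T cells had 114, 117 and 75 CPM. Endothelial cells (321, 229.8 and 428 CPM) and ionocytes (333, 320.1 and 540.1 CPM) were also lower in papain than in PBS, each by less than 2-fold.

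Timp3 binds to the extracellular matrix and was expressed mainly by cells of vessel walls and basal epithelium. It had 45769, 38142 and 18222 UMIs, or 538, 460.0 and 228 CPM, and was detected in 39.7%, 38.7% and 22.7% of cells. In pericytes or smooth muscle the levels were 5839, 4126 and 2606 CPM, with a log2 ratio of 0.66 [0.60, 0.72] for papain over PBS and 0.50 [0.46, 0.54] for papain with lonidamine over papain. In endothelial cells the values were 2009, 1919 and 1712 CPM, and in basal epithelial cells 1058, 787 and 537 CPM, with papain over PBS at 0.16 [0.11, 0.22] and 0.55 [0.50, 0.60]. In none of these 3 main gates did the 2 libraries differ by 2-fold, and the 2-fold difference over all cells shrank to 0.41 with gate shares held fixed.

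Fibroblasts went the other way for Timp3, with 657, 547 and 1137 CPM and a log2 ratio of -1.06 [-1.16, -0.95] for papain over PBS. Fibroblasts without 2 bone-forming markers showed the same order, at 468, 438 and 1014 CPM. Macrophages, neutrophils, ionocytes and serous gland cells were called higher in papain than in PBS, at log2 ratios between 1.97 and 2.13, and immature olfactory neurons at 1.29 [1.0, 1.58]. The neutrophil value was -0.04 when cells were grouped by Leiden clustering in place of marker gates, and male neutrophils had 13.9 CPM in papain and 28.2 CPM in PBS, from 1 and 3 UMIs. The papain levels of 70.3, 70.5, 95.3 and 197 CPM in macrophages, neutrophils, ionocytes and serous gland cells were small beside those of the vessel wall, and T cells had 37.1, 36.3 and 31.0 CPM. In the serous gland gate 143 of 179 cells in papain and 78 of 98 in PBS sat at the minimum of 3 markers, the median depth was 10018 UMIs in papain and 3842.5 UMIs in PBS, and 27.4% of genes were called there. The part of these differences in the 3 TIMP calls of that gate was not tested.

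Papain with lonidamine against papain asked what lonidamine changed in the model. The papain library is shared with the comparison to PBS, so the ratios of both comparisons are not independent. Over all kept cells Mmp13 was at least 2-fold higher and no member that much lower, which is 1 of 10, while 2.90% of the 22947 genes tested were that much higher and 2.08% that much lower. The log2 ratio of Mmp13 was 1.70 [1.58, 1.83], 1.73 without the top cell of each library, 1.57 in female and 1.64 in male cells. The male value rested on 1 fibroblast-gated cell, which held 166 of the 192 male Mmp13 UMIs of papain with lonidamine. Male cells of papain had 92 Mmp13 UMIs. Bone-forming markers were also higher in papain with lonidamine than in papain. They summed to 104, 41.8 and 28.6 CPM over all kept cells of papain with lonidamine, papain and PBS. In the same order, 96, 46 and 21 cells detected at least 2 of them. Over all kept cells these markers did not move with Mmp13 between papain and PBS. Mmp13 was at 7.78 CPM in papain and 15.7 CPM in PBS. In fibroblast-gated cells both were lower in papain than in PBS. The markers summed there to 209.8 CPM in papain and 925 CPM in PBS, and Mmp13 was at 101 and 974 CPM. Timp1 and Mmp12 were lower in papain with lonidamine, by less than 2-fold, at -0.79 [-0.87, -0.70] and -0.83 [-0.97, -0.70], and the other members lay between -0.55 and 0.47.

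Within gates, 8 of 97 pairs of member and gate were at least 2-fold higher in papain with lonidamine than in papain and 9 were that much lower, against 3.39% and 2.38% of all gene and gate pairs over the same 19 gates. In fibroblasts Mmp13 was higher and Mmp9 and Mmp12 were lower, with 5.24% of genes called there in either direction. Of the papain fibroblast UMIs, 1 cell held 440 of the 518 of Mmp12 and another held 87 of the 152 of Mmp9. In macrophages none of the 8 members with enough UMIs was called, against 4.6% of genes. The share of genes called was 10.5% in monocytes, 10.5% in neutrophils, 4.57% in basal epithelium, 5.41% in secretory epithelium and 5.8% in serous gland cells. It was 7.91% in tuft cells, 5.23% in sustentacular cells, 5.76% in immature and 7.55% in mature olfactory neurons. Timp1 was lower in 3 gates, which were secretory epithelial cells, monocytes and mature olfactory neurons, and higher in immature olfactory neurons with 13 and 8 UMIs. Of the 17 calls, those of Mmp12 in basal epithelium (6 and 14 UMIs) and of Timp1 in immature olfactory neurons had intervals that reached 0.

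Other genes of the protease system were counted for context, against the 10.2% of all 22862 genes that were at least 2-fold higher in papain than in PBS and the 5.92% that were that much lower. Of 17 genes that are other MMPs or Timp4, 10 had enough UMIs and none was 2-fold apart between papain and PBS over all cells, with a median log2 ratio of 0.18. Of 15 ADAM and ADAMTS proteases, 6 were higher and none lower (median 0.83), led by the aggrecanase Adamts4 with 29.6 CPM in papain and 5 CPM in PBS (2.56 [2.41, 2.72]). Of the 13 eligible genes of MMP activation and clearance, 6 were higher and 1 lower (median 1.0), among them Plaur, the urokinase receptor, with 120.0 CPM in papain and 29.8 CPM in PBS (2.01 [1.95, 2.08]). In basal epithelial cells Plau, the urokinase itself, had 18.7 CPM in papain and 0.943 CPM in PBS (4.24 [3.37, 5.46]). Of 10 AP-1 and ETS factors, which bind many MMP promoters, 5 were higher and none lower (median 0.78). These counts over all cells include the mix of cell types. In fibroblasts 1 of 10 AP-1 and ETS factors, 1 of 14 ADAM and ADAMTS proteases and 3 of 11 activation genes were higher, none lower. There 13.7% of genes were called in either direction. In basal epithelium 3 of 10, 2 of 11 and 6 of 12 were higher and 1 activation gene was lower, with 15.8% of genes called.

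Between papain with lonidamine and papain, 1 of these other genes was past 2-fold over all cells, against the 2.90% of all genes that were that much higher and the 2.08% that were that much lower. Mmp8, the neutrophil collagenase, had 1468 and 171 UMIs there, or 17.3 and 2.06 CPM, with a log2 ratio of 3.06 [2.84, 3.30]. In neutrophils it had 907 CPM in papain with lonidamine and 123 CPM in papain (2.88 [2.63, 3.15]), while Mmp9 in the same cells differed by 0.26. Neutrophil precursor-gated cells numbered 41 in papain with lonidamine, 3 in papain and 7 in PBS, and their part in the Mmp8 difference was not tested.

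The genes whose levels followed each member most closely over 42 profiles (14 gates in 3 libraries) were ranked by Pearson's r of log2(CPM + 1) among 17509 genes. The profiles share libraries, so r is a description. Mmp2 was most like Mfap4 (0.873), a microfibril protein, Mmp3 most like Epyc (0.970), a small proteoglycan, and Mmp13 most like Olfml3 (0.877). For Mmp9 the closest was Stfa2l1 (0.890), a stefin A family gene, and for Mmp12 it was Mag (0.895). Cmklr1, a chemoattractant receptor, was closest to Mmp19 (0.880), and Spred1 to Mmp14 (0.851). Among the inhibitors Timp3 had the closest partner, Actn4 (0.935), an actin-binding protein, followed by Itm2c for Timp2 (0.853) and Rnf217 for Timp1 (0.830).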

How the data were processed

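Single-cell 3′ RNA-seq counts of 3 pooled libraries were used as deposited by the authors: whole-number UMI counts per gene and barcode, made with Cell Ranger 7.1.0 per the file headers and 2.1.1 per the submitters' processing notes. The labels give the papain library the library name Fibroblast; it was used under its treatment label. Barcodes under 500 UMIs, under 200 genes or over 20% mitochondrial UMIs were left out. Scrublet (scanpy 1.11.5) calls, 2.16%, 1.76% and 1.44% of barcodes in papain with lonidamine, papain and PBS, were removed. UMIs were summed by library and marker gate. Log2 ratios of CPM had 0.5 added to each count, with exact binomial intervals (scipy 1.17.1). CPM intervals are exact Poisson, shares Clopper-Pearson. A gene needed 20 UMIs in the 2 libraries together, and a gate 50 cells in both. Called means at least 2-fold. Sex came from sex-linked UMIs. For detection at equal depth each cell was thinned to 2000 UMIs, leaving out 2078, 1647 and 1008 shallower cells. Named genes were the members, list genes past 4-fold and the 3 closest genes per member. The members and lists were chosen with earlier results of these data known. Alternatives are in the closing section. The call rule and the ratio intervals were tested on simulated Poisson counts per library with a planted 4-fold change. Gates, thinning, doublet calls and the clumping of UMIs in single cells were not simulated.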

Additional observations from a re-analysis of the deposited data

Results flagged for a closer look

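For 5 pairs of member and comparison the log2 ratio over all kept cells had opposite signs in female and in male cells of the same libraries, with neither interval reaching 0. The difference between the sexes was not tested, since each sex is 1 pooled set of cells per library. For papain over PBS, Mmp13 was at -1.62 [-1.78, -1.47] in female and 1.99 [1.43, 2.62] in male cells, and Mmp19 at 1.39 [0.95, 1.88] in female and -0.54 [-1.07, -0.04] in male cells. Male cells with a Mmp13 UMI were fewer in papain than in PBS, 12 of 2109 against 25 of 2948. For papain with lonidamine over papain, Mmp12 was at -1.04 [-1.21, -0.87] in female and 0.51 [0.15, 0.86] in male cells. In the same comparison Mmp14 was at 0.28 [0.19, 0.36] in female and -0.24 [-0.41, -0.07] in male cells, and Timp3 at 0.38 [0.35, 0.40] in female and -0.12 [-0.16, -0.07] in male cells. In 2 further pairs the signs also differed but the male interval held 0: Mmp12 for papain over PBS at 1.32 [1.11, 1.55] in female and -0.08 [-0.40, 0.23] in male cells, and Timp2 for papain with lonidamine over papain at 0.13 [0.09, 0.17] in female and -0.05 [-0.14, 0.03] in male cells. The papain cell with 440 Mmp12 UMIs was a female cell.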

How the results depend on the processing

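No paired analysis was possible because each group is 1 library. Of 836 recomputed values, 677 stayed the same, 142 moved and 17 changed sign. The 5 members called over all cells for papain over PBS became 3 in male cells, which were Mmp3 (4.77), Timp3 (1.16) and Mmp13 in the other direction, and 8 at 1.5-fold. The male Mmp3 value, with an interval of [2.73, 10.68], rested on 27 UMIs in papain and 1 UMI in PBS. The 1 called for papain with lonidamine over papain became 3 in female cells, 3 in male cells and 3 at 1.5-fold. Within gates the 32 calls for papain over PBS became 9 in male cells, and the 17 for papain with lonidamine over papain became 11 after thinning and 9 in male cells. For papain over PBS, these log2 ratios changed sign. In male cells alone Mmp13 was 1.99 over all cells and -0.46 in basal epithelium, Timp1 was -0.02 in basal epithelium, and in immature olfactory neurons Mmp19 was -0.16 and Timp3 -0.21. Mmp13 in basal epithelium was -0.06 without the top cell, -0.39 with a margin of 2 markers and -0.60 in Leiden clusters. Mmp2 in sustentacular cells was -0.78 with that margin, and Timp3 in neutrophils -0.04 in Leiden clusters. Mmp12 in mature olfactory neurons was 0.41 with all barcodes, 0.41 with doublet calls kept and 1.23 in Leiden clusters. Mmp13 in fibroblasts was 5.90 without cells with 2 bone-forming markers, a fitted value against 0 UMIs in PBS. For papain with lonidamine over papain, Mmp12 in basal epithelium was 0.29 in female cells and 0.40 in Leiden clusters, and Timp1 in mature olfactory neurons 0.13 in female cells. Leaving out the top cell and leaving out bone-marker cells were chosen after seeing the data. Fewer cells enter the values of 1 sex; the other causes were not tested.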
